A study of Homo sapiens with 6 samples.

Results

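The genes described here are 55 genes of mitosis and cytokinesis, chosen by symbol for their known roles in cell division, with earlier results of these data known. All 55 are among the 20667 gene symbols of the tables, and all 55 passed the filter on low values that left 10526 genes for testing. They were divided by role into 10 genes of mitotic entry, 11 of the spindle checkpoint and anaphase onset, 6 of the kinetochore and centromere, 7 of the spindle, 4 of the chromosomal passenger complex, 10 of cytokinesis, and 7 of chromosome condensation and the chromosome surface.

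The libraries came from U2932, an established human line of ABC-DLBCL, the type of diffuse large B-cell lymphoma that resembles activated B cells. RNA-seq compared ROCK2 KD cells, which carry a lentiviral pLKO.1 construct expressing 1 shRNA against the kinase ROCK2, with Scr shRNA cells, which carry a non-targeting shRNA in the same kind of vector. Both constructs also encode puromycin resistance and tGFP, both populations were sorted and kept under puromycin, and neither received a further treatment. There were 3 libraries per population, numbered 1 to 3 in both. A pair below means the ROCK2 KD and the Scr shRNA library of the same number. The sources used here do not say whether the numbers mark separate infections or cultures, so p values measure only the spread between these libraries, which may be technical.

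Cells enter mitosis when cyclin B-CDK1, switched on by CDC25 phosphatases, phosphorylates its substrates. PLK1 and the Aurora kinases then build the spindle, the checkpoint holds back the anaphase-promoting complex until every kinetochore is attached, and separase splits sister chromatids. Cytokinesis follows, when the centralspindlin complex brings the exchange factor ECT2 to the midzone, ECT2 activates RHOA, and RHOA activates the ROCK kinases and citron kinase at the contractile ring. Messages of most of these genes are made in the G2 and M phases, so that their level in bulk RNA follows both the fraction of dividing cells and the RNA per cell, and fewer dividing cells and less RNA per dividing cell cannot be told apart here. ABC-DLBCL lines divide rapidly. The study of ROCK2 in these cells reported lower PLK1 by RT-qPCR in ROCK2 KD cells, and described PLK1 as a MYC target gene.

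Many genes of this kind share promoter elements: a CHR, the element bound by MuvB complexes with MYBL2 (B-MYB) or FOXM1, and upstream CCAAT boxes, bound by NF-Y. Promoter windows from 250 bases before to 50 bases after the start site were found in RefSeq (GRCh38.p14) for 46 of the 55 genes. The CHR was searched as TTTGAA and as its known variants TTCGAA or else TTTAAA, the second element as CCAAT, an E2F element as TTCCCGC or else as TTGGCGC, and a MYC-type E-box as CACGTG, all on both strands. A CHR match was present in 39 of the 46 windows (84.8%), against 17.1% of the 7958 windows of tested genes and 25.3% of all 27305 windows. CCAAT was present in 33 (71.7%), against 38.4% of the windows of tested genes, and both motifs were present in 30 (65.2%), against 7.2%. In the stretch from 60 bases before to 40 bases after the start site, 32 of the 46 genes (69.6%) had a CHR match, against 4.66% of the windows of tested genes. The E2F motif was found in 9 windows (19.6%, against 15.5%) and the E-box in 6 (13%, against 10.8%). The 7 genes without a CHR match in this window were AURKB, CCNA2, CDC25B, CDC25C, MYBL2, NEK2 and TACC3. AURKA, BIRC5, BUB3, FOXM1, KNTC1, RACGAP1, TPX2, TTK and UBE2C were not in the promoter table.

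The windows of 8 genes are shown because they carry this shared feature for one or more genes of each of 6 roles, with TACC3 as a window that has no match. Each runs from 150 bases before to 25 bases after the start site, 175 bases in the sense of the gene, and was placed on GRCh37 by an exact match. Capitals mark CHR and CCAAT matches on either strand. In CDCA8 the CHR overlaps a CCAAT on the other strand.
PLK1 (chr16:23690060-23690234, plus strand): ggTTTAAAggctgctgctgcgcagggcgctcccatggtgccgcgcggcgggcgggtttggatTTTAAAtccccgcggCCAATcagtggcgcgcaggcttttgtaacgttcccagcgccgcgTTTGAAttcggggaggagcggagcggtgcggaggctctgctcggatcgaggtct
CCNB1 (chr5:68462827-68463001, plus strand): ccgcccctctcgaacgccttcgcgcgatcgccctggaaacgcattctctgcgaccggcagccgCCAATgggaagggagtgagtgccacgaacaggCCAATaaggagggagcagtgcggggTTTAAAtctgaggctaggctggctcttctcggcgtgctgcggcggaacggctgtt
CDC20 (chr1:43824502-43824676, plus strand): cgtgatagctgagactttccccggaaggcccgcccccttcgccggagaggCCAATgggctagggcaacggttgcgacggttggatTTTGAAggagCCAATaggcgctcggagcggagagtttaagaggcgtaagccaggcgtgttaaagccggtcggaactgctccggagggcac
CENPA (chr2:27008774-27008948, plus strand): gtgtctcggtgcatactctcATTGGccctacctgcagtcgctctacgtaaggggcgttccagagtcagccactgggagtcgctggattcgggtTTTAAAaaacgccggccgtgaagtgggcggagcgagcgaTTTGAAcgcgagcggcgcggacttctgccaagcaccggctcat
KIF11 (chr10:94352737-94352911, plus strand): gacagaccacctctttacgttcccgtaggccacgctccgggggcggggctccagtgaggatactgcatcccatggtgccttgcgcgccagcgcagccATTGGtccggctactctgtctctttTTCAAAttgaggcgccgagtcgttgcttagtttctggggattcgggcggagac
CDCA8 (chr1:38158038-38158212, plus strand): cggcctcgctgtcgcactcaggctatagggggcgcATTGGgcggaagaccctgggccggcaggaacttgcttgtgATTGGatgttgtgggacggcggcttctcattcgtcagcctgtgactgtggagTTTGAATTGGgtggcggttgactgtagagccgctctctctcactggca
KIF23 (chr15:69706538-69706712, plus strand): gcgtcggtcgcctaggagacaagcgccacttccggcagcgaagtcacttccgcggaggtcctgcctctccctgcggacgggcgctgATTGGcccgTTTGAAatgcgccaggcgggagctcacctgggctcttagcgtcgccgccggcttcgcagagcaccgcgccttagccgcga
TACC3 (chr4:1722208-1722382, plus strand): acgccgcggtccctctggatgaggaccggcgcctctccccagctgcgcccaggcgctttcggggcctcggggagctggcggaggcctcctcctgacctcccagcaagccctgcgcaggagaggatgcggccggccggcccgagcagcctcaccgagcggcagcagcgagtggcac
A match is a run of letters and is not evidence that a factor was bound. In PLK1, CCNB1, CENPA, KIF11 and KIF23 the CHR match nearest the start site lies downstream of every CCAAT match in the window shown. In CDC20 a CCAAT match lies downstream of the CHR match.

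Levels are given as scaled FPKM, the deposited FPKM (fragments normalised to transcript length and to the mapped fragments of the library) divided by 1 factor per library (0.682 to 1.24), which is a value per length and can be compared between genes. Counts of reads were not used here, and the study's methods state an approximate range of sequenced fragments but no number per library. The relative depth of the libraries was read from the lowest values, 71.4% to 92.7% of the deepest library in the others. The cells carried the B cell markers, with MS4A1 (CD20) between 108 and 413 scaled FPKM and CD79A between 235 and 382, while the T cell markers summed to at most 1.11, the myeloid markers to at most 3.84 and the epithelial markers to at most 5.58 in any library. ROCK2 was at 4.03, 4.33 and 1.06 scaled FPKM in ROCK2 KD libraries 1, 2 and 3 and at 6.34, 5.83 and 4.91 in Scr shRNA libraries 1, 2 and 3, so the groups did not overlap and the reduction was deepest in pair 3. Its log2 fold change of -0.81 (standard error, SE, 0.22) did not pass the threshold over all genes (limma with replicate number as block, adjusted p = 0.811).

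The 55 genes were well expressed. Their mean level over the 6 libraries ran from 2.99 scaled FPKM for CIT to 154 for PTTG1, with a median of 23.4, against a median of 9.41 over all tested genes, and 49 of the 55 lay above the middle of the tested genes. The highest were PTTG1 (securin, the inhibitor of separase), MYBL2 at 142 and ZWINT at 79.9, and the lowest were CIT, KIF14 at 3.85 and CENPE at 4.27. PTTG1, UBE2C and KIF4A have near-identical copies elsewhere in the genome between which reads can be split, so their values are less certain.

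**Figure D1:**
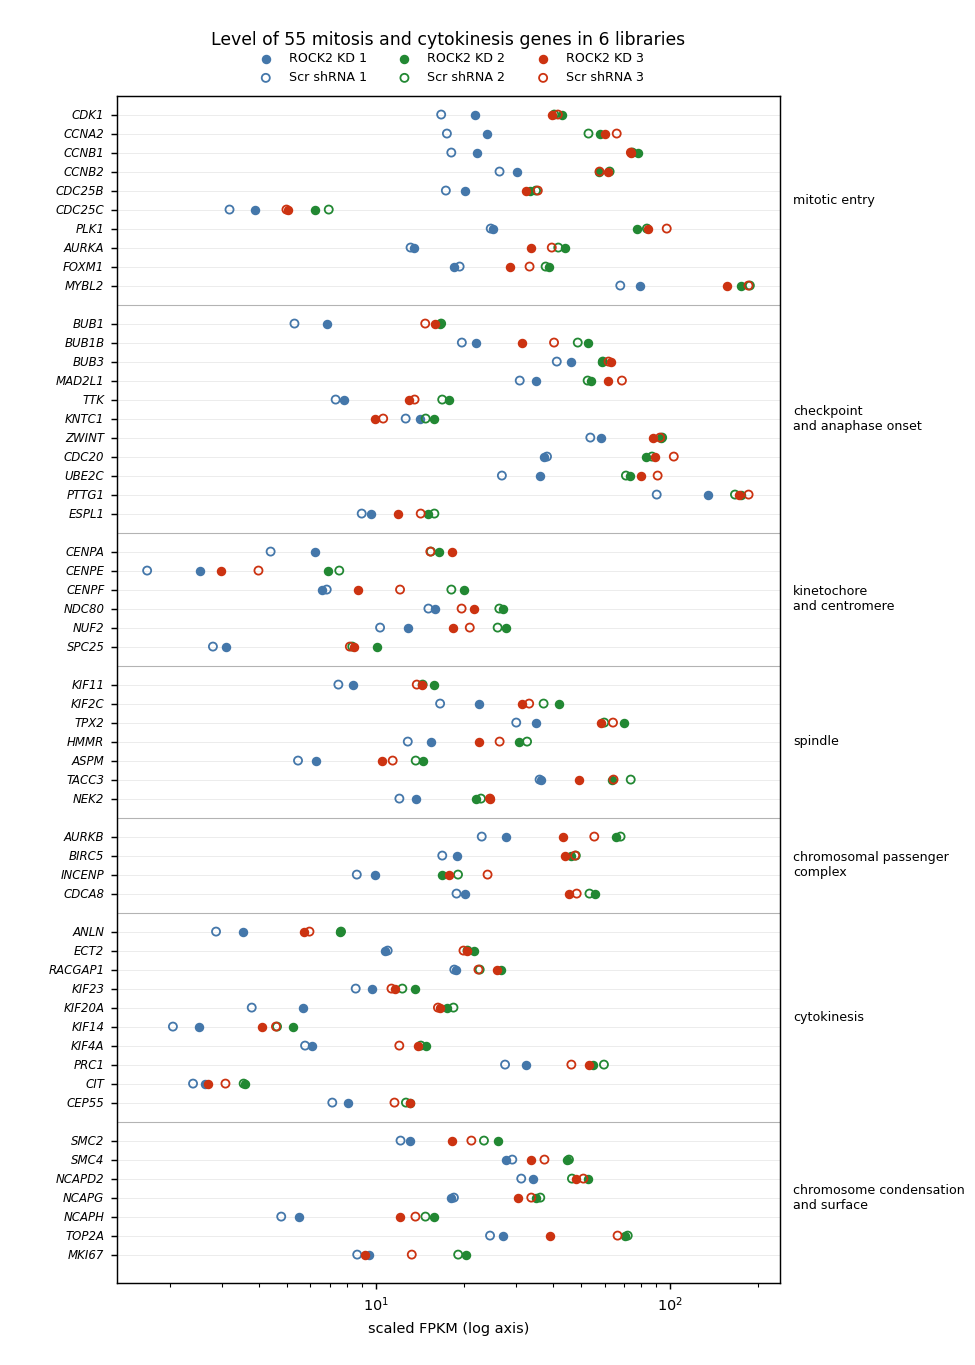
Scaled FPKM (log axis) of each of the 55 genes in the 3 ROCK2 KD (filled) and 3 Scr shRNA libraries (open), coloured by replicate number and ordered by role. In 53 of the 55 genes the libraries numbered 1 are the lowest of both groups, and for every gene the 3 filled and 3 open points overlap.

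Among the 6 libraries the 55 genes differed between replicate numbers more than between ROCK2 KD and Scr shRNA. The libraries numbered 1 stood apart over the whole table as well: their deposited FPKM summed to 217309 in ROCK2 KD and 208289 in Scr shRNA, against 438262 to 480612 in the other 4, their scaling factors were both 0.682, against 1.18 to 1.24, and they listed the most genes above 0, 16679 and 16754, against 15784 to 16260. The part of these library properties in the low values of the 55 genes was not tested. In 53 of the 55 genes library 1 was the lowest of the 3 ROCK2 KD libraries and also the lowest of the 3 Scr shRNA libraries, where 32.6% of all tested genes had this pattern. The exceptions were KNTC1 and MKI67, whose lowest ROCK2 KD value was in library 3. Relative to each gene's mean over the 6 libraries, the median of the 55 genes was -0.51, 0.42 and 0.20 (log2) in ROCK2 KD libraries 1, 2 and 3 and -0.72, 0.38 and 0.25 in Scr shRNA libraries 1, 2 and 3, while the median of all tested genes stayed within -0.02 to 0.03. In the limma fit, a test of the replicate number, added after the values were seen, passed at an adjusted p under 0.05 for 53 of the 55 genes, against 48.7% of all tested genes. RACGAP1 and CIT did not pass, and with the libraries numbered 1 left out 3 of the 55 passed, against 8.57% of all tested genes. Library 1 was the lowest of both groups in all genes, or all but 1, of each of the 7 roles. In the other lists this held for 10 of 17 anaphase-promoting complex, 18 of 27 other kinetochore, 19 of 25 other spindle, 10 of 14 cohesin and condensin II, 20 of 31 ring and abscission and 28 of 40 replication genes, and 8 of 19 other mitotic entry genes (42.1%) had it, with medians of -0.05 and -0.06 in the libraries numbered 1. It held for 4 of 5 B cell markers, 1 of 5 plasma cell markers and neither of the myeloid and epithelial markers tested. The labels and methods give no account of how the numbers differ, and the study treats them as a batch.

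Between ROCK2 KD and Scr shRNA none of the 55 genes passed. In limma with the block, 0 of 55 had an adjusted p under 0.05, as had 0% of the 10526 tested genes, and the adjusted p values of the 55 were 0.938 or higher. At an unadjusted p under 0.05 the number was also 0 of 55, against 5.39% of all tested genes, with a lowest unadjusted p of 0.0687, for CENPA. No gene of the 55 had ROCK2 KD values that did not overlap the Scr shRNA values, against 2.14% of all tested genes. With ComBat on the replicate number followed by limma without the block, 0 of 55 had an adjusted p under 0.05 (lowest 0.106), against 2.82% of all tested genes, and 7 had an unadjusted p under 0.05, against 20.1% of all tested genes. The 95% interval of the log2 fold change lay within -0.5 to 0.5 for 52 of the 55 genes, and the other 3 were PTTG1, CENPA and TOP2A. These intervals carry only the spread between these libraries, which may be technical, on a scale that understates changes of low genes. They do not bound a difference between independent knockdowns. They also rest on the block: the SE of PLK1 was 0.10 with it and 0.65 without it. The median log2 fold change of the 55 was 0.04, with 36 above and 19 below 0, beside a median of -0.00 and 48.7% above 0 over all tested genes. It was 0.10 without the libraries numbered 3 and -0.03 without those numbered 1, so its sign rested on single pairs.

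The 3 pairs differed from each other in the direction of these genes. In pair 1, 49 of the 55 genes were higher in ROCK2 KD, against 52% of all tested genes, with a median difference of 0.16 (log2, quartiles 0.09 and 0.23) beside 0.01 over all tested genes. In pair 2, 32 of 55 were higher, against 48.7%, with a median of 0.05. In pair 3, 38 of 55 were lower in ROCK2 KD, against 50.1%, with a median of -0.11 (quartiles -0.21 and 0.01) beside -0.00. Genes that were higher in pair 1 and lower in pair 3 numbered 33 of the 55, against 26.7% of all tested genes, and 1 gene, ECT2, had the opposite order, against 24.6%. Each pair holds 1 library per group, so a difference between pairs has no replicate of its own and was not tested. ROCK2 was lowest relative to its control in pair 3, with log2 differences of -0.54, -0.36 and -1.52 in pairs 1, 2 and 3.

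**Figure D2:**
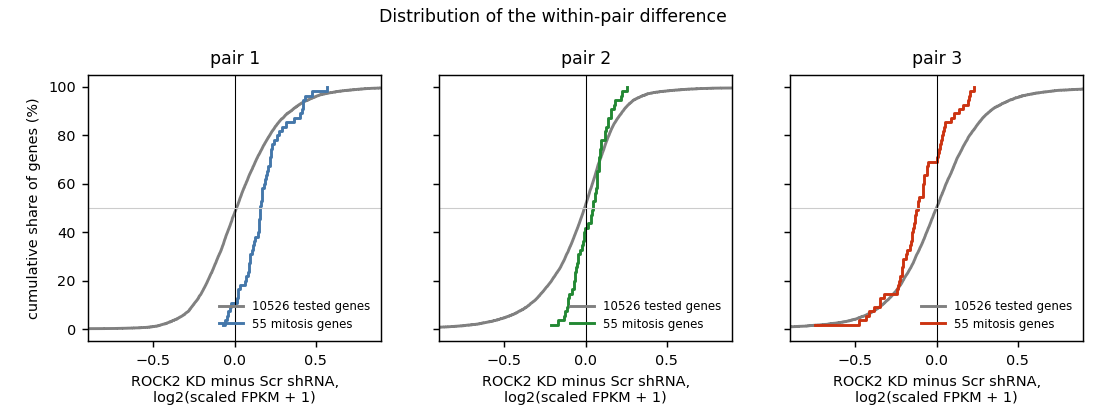
Cumulative share of genes (%) against the difference between ROCK2 KD and Scr shRNA within a pair, in log2(scaled FPKM + 1), for the 55 genes (colour) and the 10526 tested genes (grey). The curve of the 55 genes lies to the right of the grey curve in pair 1 (medians 0.16 and 0.01) and to its left over most of pair 3 (medians -0.11 and -0.00).

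In all 3 pairs, 9 of the 55 genes were higher in ROCK2 KD, against 12.7% of all tested genes, and 3 were lower, against 12.3%. The 9 were CCNB1, CENPA, NDC80, SPC25, KIF11, RACGAP1, KIF23, KIF4A and CEP55, and the 3 were CDC20, SMC4 and NCAPG. With each pair's difference adjusted for the GC content of the transcripts, 5 were higher in all pairs and 3 lower.

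**Figure D3:**
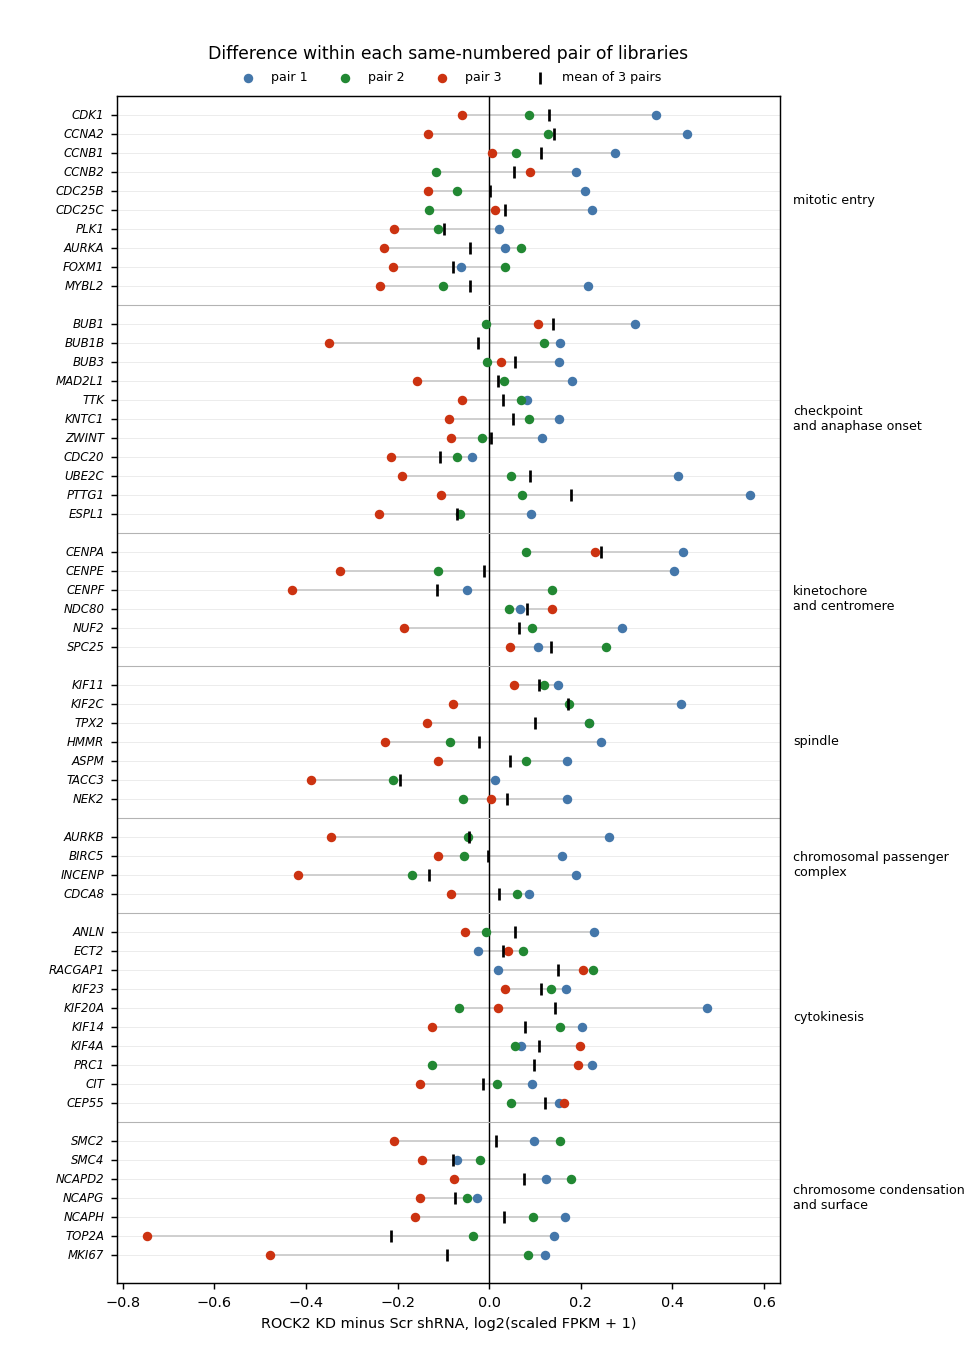
Difference between ROCK2 KD and Scr shRNA in log2(scaled FPKM + 1) for each of the 55 genes in pairs 1 (blue), 2 (green) and 3 (red), with the mean of the pairs as a black tick and a grey line from the lowest to the highest pair. The pair 1 points of 49 genes lie right of 0 and the pair 3 points of 38 genes lie left of it, with TOP2A in pair 3 farthest from 0 at -0.75.

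The 10 genes of mitotic entry had a median log2 fold change of 0.02, with median differences of 0.21, -0.02 and -0.13 in pairs 1, 2 and 3. PLK1, the Polo-like kinase of centrosome maturation and mitotic entry, lies on chromosome 16 of GRCh37 from 23688977 to 23701688. It was measured at 24.99, 77.3 and 84.3 scaled FPKM in ROCK2 KD libraries 1, 2 and 3 and at 24.6, 83.6 and 97.6 in Scr shRNA libraries 1, 2 and 3. The pairs were level in number 1 and lower in ROCK2 KD in numbers 2 and 3, and the groups overlapped widely. Its log2 fold change of -0.10 (SE 0.10, 95% interval -0.33 to 0.13; limma adjusted p = 0.971) was the lowest of the 10 genes. CCNA2, cyclin A2, had the highest, 0.14 (SE 0.13), with 23.9, 57.9 and 60.02 in ROCK2 KD and 17.5, 52.9 and 66.0 in Scr shRNA libraries. It was higher in ROCK2 KD in pairs 1 and 2 and lower in pair 3.

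CDK1, the kinase partner of the mitotic cyclins, on chromosome 10 from 62538089 to 62554610, was at 21.8, 43.0 and 39.9 in ROCK2 KD and at 16.7, 40.5 and 41.6 in Scr shRNA libraries. CCNB1, cyclin B1, on chromosome 5 from 68462962 to 68474072, was at 22.1, 77.7 and 74.1 against 18.1, 74.6 and 73.7. For both genes the only pair with a difference above 0.1 on the log2 scale was pair 1, at 0.36 for CDK1 and 0.27 for CCNB1. The log2 fold changes were 0.13 (SE 0.12) and 0.11 (SE 0.10). CCNB2, CDC25B and CDC25C, a second B-type cyclin and the activating phosphatases of CDK1, had log2 fold changes of 0.05, 0.00 and 0.04.

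AURKA, the Aurora kinase of the centrosome, was at 13.5, 43.9 and 33.7 scaled FPKM in ROCK2 KD and at 13.1, 41.8 and 39.7 in Scr shRNA libraries. FOXM1, the transcription factor of the G2 and M genes, was at 18.4, 38.8 and 28.7 against 19.3, 37.8 and 33.4. Pair 3 was the pair with the largest difference for both, at -0.23 and -0.21, and the other pairs lay within 0.1 of 0. MYBL2, which acts with the MuvB complex on CHR promoters, was at 0.22, -0.10 and -0.24 in pairs 1, 2 and 3, with a log2 fold change of -0.04.

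The 11 genes of the checkpoint and anaphase onset, which sense unattached kinetochores or release sister chromatids, had a median log2 fold change of 0.03, and median differences of 0.15, 0.03 and -0.11 in the 3 pairs, with 10 of 11 higher in ROCK2 KD in pair 1 and 9 of 11 lower in pair 3. BUB1, the checkpoint kinase of the kinetochore, was at 6.85, 16.6 and 15.9 in ROCK2 KD and at 5.29, 16.7 and 14.7 in Scr shRNA libraries, level in pair 2 and higher in pairs 1 and 3. MAD2L1, which as MAD2 binds and restrains CDC20, was at 35.1, 53.8 and 61.5 against 30.9, 52.5 and 68.7, higher in pair 1 and lower in pair 3. The log2 fold changes were 0.14 (SE 0.11) for BUB1 and 0.02 (SE 0.11) for MAD2L1. BUB1B, TTK, BUB3, KNTC1 and ZWINT, the other checkpoint genes, had log2 fold changes from -0.03 for BUB1B to 0.06 for BUB3. BUB1B stood out in pair 3, with a difference of -0.35.

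CDC20, the activator of the anaphase-promoting complex that the checkpoint holds back, on chromosome 1 from 43824652 to 43828874, was at 37.2, 82.8 and 88.8 scaled FPKM in ROCK2 KD and at 38.2, 87.0 and 103 in Scr shRNA libraries. It was the gene of this role that was lower in all 3 pairs, by differences of -0.04, -0.07 and -0.21, with a log2 fold change of -0.11 (SE 0.09; limma adjusted p = 0.970). PTTG1, on chromosome 5 from 159848862 to 159855746, was at 134, 175 and 172 against 90.2, 167 and 185. Its log2 fold change was the highest of the role, 0.18 (SE 0.14), and came from pair 1, with differences of 0.57, 0.07 and -0.11. UBE2C, the ubiquitin-conjugating enzyme of the complex, followed the same order with 0.41, 0.05 and -0.19. ESPL1, separase itself, was at 9.61, 15.1 and 11.9 in ROCK2 KD and at 8.96, 15.8 and 14.2 in Scr shRNA libraries. Its log2 fold change was -0.07 (SE 0.11).

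The 6 kinetochore and centromere genes, which tie chromosomes to microtubules, had a median log2 fold change of 0.07, and 3 of the 6 had a positive difference in each pair. CENPA, the histone H3 variant that marks the centromere, on chromosome 2 from 26987157 to 27023935, was at 6.23, 16.4 and 18.2 scaled FPKM in ROCK2 KD and at 4.39, 15.4 and 15.3 in Scr shRNA libraries. It was higher in each pair, by 0.42, 0.08 and 0.23, although the groups overlapped because of the low libraries numbered 1. The log2 fold change of 0.24 (SE 0.11, 95% interval -0.02 to 0.51; limma adjusted p = 0.938) was the highest of all 55 genes. NDC80, the microtubule-binding subunit of the NDC80 complex, on chromosome 18 from 2571556 to 2616634, was at 15.9, 27.1 and 21.6 against 15.1, 26.3 and 19.6, a log2 fold change of 0.08 (SE 0.10). SPC25 and NUF2 of the same complex had 0.14 and 0.07. CENPF, a kinetochore protein of the corona, had the lowest value of the role at -0.11 (SE 0.14), with 0.14 in pair 2 and -0.43 in pair 3. CENPE, the kinetochore kinesin, had the widest spread between pairs of the 6, with 0.40 in pair 1 and -0.33 in pair 3, at levels from 1.67 to 7.52 scaled FPKM.

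The 7 spindle genes had a median log2 fold change of 0.05. All 7 were higher in ROCK2 KD in pair 1, and 5 of the 7 were lower in pair 3. KIF11, the kinesin that pushes the spindle poles apart, on chromosome 10 from 94333862 to 94415152, was at 8.40, 15.8 and 14.4 in ROCK2 KD and at 7.47, 14.4 and 13.8 in Scr shRNA libraries, higher in each pair by 0.15, 0.12 and 0.05. TPX2, the activator of AURKA on microtubules, was at 35.1, 69.8 and 58.2 against 30.1, 59.8 and 64.1, higher in pairs 1 and 2 and lower in pair 3. The log2 fold changes were 0.11 (SE 0.10) for KIF11 and 0.10 (SE 0.11) for TPX2. KIF2C, a microtubule-depolymerising kinesin, had the highest log2 fold change of the role, 0.17 (SE 0.12). TACC3, which crosslinks spindle microtubules with clathrin, had the lowest, -0.20 (SE 0.11; limma adjusted p = 0.957). It was at 36.4, 63.5 and 48.9 in ROCK2 KD and at 36.1, 73.6 and 64.4 in Scr shRNA libraries, level in pair 1 and lower in pairs 2 and 3. HMMR, ASPM and NEK2, genes of spindle poles and centrosomes, had log2 fold changes of -0.02, 0.05 and 0.04.

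In the chromosomal passenger complex, AURKB, the Aurora kinase that corrects kinetochore attachments and later controls abscission, was at 27.7, 65.9 and 43.3 scaled FPKM in ROCK2 KD and at 22.9, 68.0 and 55.4 in Scr shRNA libraries. BIRC5 (survivin), which brings the complex to centromeres, was at 18.9, 46.1 and 43.998 against 16.8, 47.9 and 47.7. Both genes were higher in ROCK2 KD in pair 1 and lower in pairs 2 and 3. The log2 fold changes were -0.04 (SE 0.13) for AURKB and -0.00 (SE 0.10) for BIRC5. INCENP, the scaffold of the complex, had the lowest of the 4 at -0.13 (SE 0.14), with 0.19, -0.17 and -0.42 in pairs 1, 2 and 3, and CDCA8 (borealin) the highest at 0.02 (SE 0.10). The 4 subunits together had medians of 0.17, -0.05 and -0.23 in the 3 pairs, and all 4 were higher in pair 1 and lower in pair 3.

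The 10 cytokinesis genes, of the midzone, ring and midbody, had the highest median log2 fold change of the 7 roles, 0.10, with medians of 0.16, 0.05 and 0.04 in the 3 pairs. The median log2 fold change was 0.05 without the libraries numbered 1, and without those numbered 3 the kinetochore, spindle and checkpoint medians, at 0.164, 0.125 and 0.107, were above the cytokinesis median of 0.105. Above 0 were 9 of the 10, and in pair 3 there were 7 of 10 higher in ROCK2 KD, where 10 of the other 45 genes were higher. Whether this role differs from the others was not tested. RACGAP1, the GTPase-activating subunit of centralspindlin, on chromosome 12 from 50370706 to 50426919, was at 18.8, 26.6 and 25.9 scaled FPKM in ROCK2 KD and at 18.5, 22.6 and 22.4 in Scr shRNA libraries, level in pair 1 and higher in pairs 2 and 3. Its log2 fold change was 0.15 (SE 0.10, 95% interval -0.09 to 0.39; limma adjusted p = 0.960), the highest of the 10. KIF23, the kinesin of centralspindlin, was higher in each pair, by 0.17, 0.14 and 0.03.

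ECT2, the RHOA exchange factor recruited by centralspindlin, on chromosome 3 from 172468472 to 172539264, was at 10.8, 21.6 and 20.5 in ROCK2 KD and at 10.98, 20.5 and 19.9 in Scr shRNA libraries. ANLN (anillin), which links RHOA, actin and myosin at the ring, was at 3.53, 7.58 and 5.70 against 2.87, 7.62 and 5.95. Neither gene had a difference above 0.1 in pairs 2 and 3, and the log2 fold changes were 0.03 (SE 0.10) and 0.06 (SE 0.12). CIT, citron kinase, which like ROCK2 is a RHOA effector kinase and acts at the midbody, on chromosome 12 from 120123596 to 120315124, was at 2.62, 3.61 and 2.68 in ROCK2 KD and at 2.39, 3.56 and 3.08 in Scr shRNA libraries. Its log2 fold change of -0.01 (SE 0.11, 95% interval -0.29 to 0.26) was the lowest of the 10. PRC1, KIF4A, KIF20A, KIF14 and CEP55, which bundle midzone microtubules, carry cargo along them or lead abscission, had log2 fold changes from 0.08 for KIF14 to 0.14 for KIF20A. KIF20A was at 0.48 in pair 1 and within 0.1 of 0 in the others.

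The 7 genes of chromosome condensation and the chromosome surface had a median log2 fold change of -0.08, the lowest of the 7 roles, and 0.10 without the libraries numbered 3. All 7 were lower in ROCK2 KD in pair 3, with a median of -0.16, while 5 of 7 were higher in pair 1. TOP2A, the topoisomerase that untangles sister chromatids, on chromosome 17 from 38544777 to 38574148, was at 27.1, 70.2 and 39.2 scaled FPKM in ROCK2 KD and at 24.5, 71.9 and 66.4 in Scr shRNA libraries. MKI67 (Ki-67), the proliferation marker that coats mitotic chromosomes, on chromosome 10 from 129894923 to 129924687, was at 9.50, 20.3 and 9.23 against 8.65, 19.1 and 13.3. For both genes ROCK2 KD library 3 was well below its control, by -0.75 and -0.48, and the other pairs lay within 0.15 of 0. The log2 fold changes were -0.21 (SE 0.17; limma adjusted p = 0.969) for TOP2A, the lowest of all 55 genes, and -0.09 (SE 0.14) for MKI67. Without the libraries numbered 3 they were 0.05 and 0.10. Among the condensin I and shared condensin subunits, NCAPD2 had the highest log2 fold change at 0.08 (SE 0.10), and SMC4 and NCAPG, both lower in all 3 pairs, had -0.08 each.

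Summed over the 55 genes, the scaled FPKM was 1162, 2259 and 2008 in ROCK2 KD libraries 1, 2 and 3 and 1006, 2243 and 2214 in Scr shRNA libraries 1, 2 and 3. The sums gave log2 ratios of 0.21, 0.01 and -0.14 in pairs 1, 2 and 3, the same order as the medians.

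Other genes of the same processes did not all follow the 55. In 6 further lists fixed by process, 0 of the tested genes passed the adjusted threshold of 0.05 in limma. Median differences in pairs 1, 2 and 3 were 0.09, 0.02 and -0.16 for 25 other spindle genes, -0.00, 0.02 and -0.11 for 27 other kinetochore genes, and 0.02, -0.02 and -0.13 for 17 genes of the anaphase-promoting complex. They were -0.03, 0.07 and -0.09 for 19 other mitotic entry genes, -0.09, 0.07 and -0.04 for 14 cohesin and condensin II genes, and 0.08, 0.01 and 0.00 for the 31 tested of 32 actomyosin ring and abscission genes. Thus 5 of the 6 lists were below 0 in pair 3, and the median above 0.15 that the 55 genes had in pair 1 was not seen in these lists. At an unadjusted p under 0.05 there were 0 to 2 genes per list, where 5.39% of all tested genes had such a p: KPNA2 and STMN1 (stathmin, a microtubule destabiliser) among the spindle genes, PKMYT1 among the entry genes and SEPT7 in the ring list.

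By the rule of the lowest and highest log2 fold change of each list, the entry genes ran from -0.49 for PKMYT1, the inhibitory kinase of CDK1, to 0.11 for LIN52 of the MuvB complex. PKMYT1 was at 16.8, 10.2 and 14.3 scaled FPKM in ROCK2 KD and at 15.8, 17.9 and 25.7 in Scr shRNA libraries, lower in pairs 2 and 3. The other spindle genes ran from -0.24 for HAUS2 of the augmin complex to 0.25 for KPNA2, the importin that masks TPX2, which was higher in all 3 pairs. The anaphase-promoting complex ran from -0.22 for CDC23 to 0.11 for ANAPC16, the kinetochore list from -0.28 for CASC5 (KNL1) to 0.13 for CENPW, and cohesin and condensin II from -0.19 for NCAPH2 to 0.13 for STAG2. In the ring and abscission list the range was -0.18 for VPS4B, the ATPase of abscission, to 0.28 for SEPT7, a septin, at 52.5, 72.3 and 84.3 against 44.3, 56.7 and 70.5. ROCK1, the paralog of ROCK2, was level at 11.9, 13.2 and 12.7 in ROCK2 KD and 12.7, 12.4 and 12.6 in Scr shRNA libraries.

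Genes of DNA replication were taken as the nearest comparison, since they mark the preceding S phase. The 40 replication genes had a median log2 fold change of -0.09, with 35 of 40 below 0, and medians of 0.04, -0.07 and -0.23 in pairs 1, 2 and 3. In pair 3 both groups lay below 0, with 36 of 40 replication genes and 38 of 55 mitosis and cytokinesis genes lower in ROCK2 KD, and in pair 1 they separated, with 24 of 40 against 49 of 55 higher. The difference between the 2 groups was not tested. Values ran from -0.31 for POLD1 to 0.13 for TYMS, and 0 of 40 passed the adjusted threshold of 0.05 in limma.

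**Figure D4:**
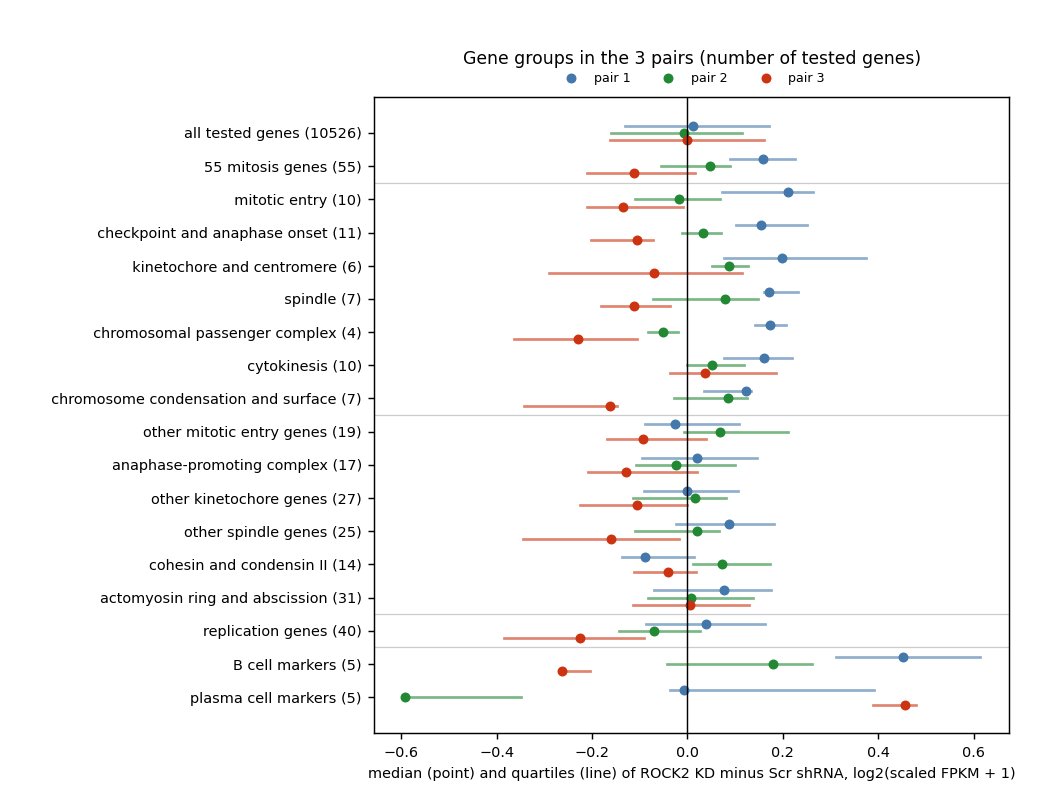
Median (point) and quartiles (line) of the difference between ROCK2 KD and Scr shRNA, in log2(scaled FPKM + 1), for gene groups in pairs 1 (blue), 2 (green) and 3 (red), with the number of tested genes in brackets. The 55 genes go from 0.16 in pair 1 to -0.11 in pair 3, the cytokinesis genes stay at 0.04 in pair 3, and B cell and plasma cell markers differ between pairs as well.

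Markers of the B cell state also differed between pairs. The 5 B cell markers had median differences of 0.45, 0.18 and -0.26 in pairs 1, 2 and 3, with all 5 higher in ROCK2 KD in pair 1 and 4 of 5 lower in pair 3, and the 5 plasma cell markers had -0.01, -0.59 and 0.46. The summed scaled FPKM of the B cell markers ran from 614 to 1102 in ROCK2 KD and from 444 to 1146 in Scr shRNA libraries, and that of the plasma cell markers from 330 to 708 and from 289 to 552. The log2 ratios of these sums in pairs 1, 2 and 3 were 0.47, -0.06 and -0.10 for the B cell markers and 0.33, -0.74 and 0.41 for the plasma cell markers, so that the B cell sum and median had opposite signs in pair 2 and the plasma cell sum and median had them in pair 1. All 10 were listed above 0. PAX5, a defining B cell factor, was at 22.1, 32.2 and 27.3 against 15.9, 33.2 and 32.9, and PRDM1, a defining plasma cell factor, at 1.40, 4.42 and 7.24 against 1.46, 5.06 and 4.06. Of the markers of other cells, 1 of 5 myeloid genes (CD68) and 1 of 5 epithelial genes (EPCAM, between 2.09 and 5.46 scaled FPKM) passed the filter. Of the 4 T cell genes in the tables none passed it, CD2 was listed at 0 in all 6 libraries and CD3E reached 1.11 scaled FPKM, and CDH1 of epithelial cells was listed at 0 in all 6. The part of these markers in the differences of the 55 genes was not tested.

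The 55 genes had a median transcript GC content of 43.9%, against 47.6% over the 9657 tested genes with an annotated transcript, and a median transcript length of 3552 bases against 3452. Across those 9657 genes, which share libraries and are not independent, Spearman's rho between the difference and the GC content was 0.06, -0.43 and -0.11 in pairs 1, 2 and 3, and among the 55 genes it was -0.02, -0.30 and -0.19. With the GC adjustment the medians of the 55 genes were 0.15, 0.01 and -0.12 in pairs 1, 2 and 3. Against transcript length the rho of the 55 genes was -0.28, 0.13 and -0.21, and over all genes -0.07, 0.17 and 0.02. Genes of the 55 with and without a CHR match in the promoter window had median differences of 0.16 (39 genes) and 0.22 (7 genes) in pair 1, 0.06 and -0.07 in pair 2, and -0.11 and -0.13 in pair 3, and the difference between them was not tested. The split is by match to the strings searched, and a gene without a match may still hold another form of the element.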

How the data were processed

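RNA-seq of 3 ROCK2 KD and 3 Scr shRNA libraries of U2932 cells was analysed. Groups and replicate numbers come from the labels. The authors made Nextera libraries, used STAR to align 50-base paired reads to hg19 and obtained FPKM from Cufflinks. The deposited values are these FPKM, fragments normalised to transcript length and to mapped fragments, for 20667 symbols. They carry no counts, so a count test was not run and no counting interval can be given.

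Each library was divided by a trimmed mean of log ratios (trims 0.3 and 0.05). A gene entered the fit when 3 or more libraries had a deposited FPKM of 1 or above, and values were taken as log2(scaled FPKM + 1), which understates changes of low genes. limma 3.58.1 (R 4.3.3) was fitted with the condition and the replicate number as a block, with a mean-variance trend, with two-sided tests and Benjamini-Hochberg adjustment across the 10526 genes (threshold 0.05). The study instead corrected the replicate number as a batch with ComBat before limma. The block accounts for the same number in another way, and ComBat was run as an alternative. The deviations of 2 libraries with the same number from their group means correlated at 0.848, 0.784 and 0.737 across genes for numbers 1, 2 and 3. The fit was also run on simulated data with noise drawn independently for each gene. The outcome is not given here, so that run does not measure what the 3 pairs could detect. Gene positions and transcripts come from GENCODE 44 lifted to GRCh37, the assembly behind hg19. Tables were made in Python 3.11.15 with pandas 2.3.3.

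The 55 genes and all lists were chosen with earlier results of these data known. Genes named with values were a set of 21 chosen for their roles, the lowest and highest log2 fold change of each role and list, ROCK1 and ROCK2. Genes named beyond these rules, such as CENPE, UBE2C, BUB1B and STMN1, were picked after their values were seen. The GC adjustment, the test of the replicate number and the bounds of the promoter stretch around the start site were also chosen after seeing the data. Alternatives were no block, ComBat (written out in its parametric form), another pseudocount, filters, scalings, no trend, and leaving out each replicate number.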

Additional observations from a re-analysis of the deposited data

How the results depend on the processing

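None of the 55 genes had an adjusted p under 0.05 in any alternative, leaving out each replicate number included. Over all tested genes 0 were called with the replicate block and 0 without it, 297 with ComBat followed by limma without the block, and 0 to 17 with a replicate number left out (17 without the libraries numbered 1, 4 without those numbered 3). Without the replicate block the counts of the 55 genes lower (3) and higher (9) in all pairs cannot change, and the block changed no call among them. Leaving out a replicate number gave 3 to 16 genes lower (16 without number 1, 5 without number 2) and 10 to 29 higher in all remaining pairs (29 without number 3, 16 without number 2), since fewer pairs have to share a direction, 3 to 52 genes differing between replicate numbers (3 without the libraries numbered 1), and a median log2 fold change of -0.0886 to 0.103 for the 7 condensation genes. The median also changed sign for mitotic entry (-0.0701 to 0.0775), checkpoint (-0.05 to 0.107), spindle (-0.0164 to 0.125), passenger complex (-0.14 to 0.0631) and replication genes (-0.143 to 0.000696), and stayed above 0 for kinetochore (0.0215 to 0.164) and cytokinesis genes (0.0452 to 0.107). Of the 6 further lists it changed sign for the anaphase-promoting complex (-0.0542 to 0.0168), cohesin and condensin II (-0.0653 to 0.0281), other spindle (-0.09 to 0.0195), other mitotic entry (-0.00188 to 0.0271) and ring and abscission genes (-0.00698 to 0.0416), and stayed below 0 for the other kinetochore genes (-0.0439 to -0.0296). With the GC adjustment, added after seeing the data, 5 genes were higher in all pairs, and signs reversed for MAD2L1 (-0.0185), BIRC5 (0.00506), ECT2 (-0.0129) and ROCK1 (-0.0224). Without scaling BIRC5 was 0.00304. SEPT7 had an adjusted p of 0.0312 in limma after ComBat. The cause of these changes was not tested.

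Leaving out a replicate number changed the sign of the log2 fold change of 29 of the 55 genes, against 49.5% of all tested genes. Among the genes named by rule, those that changed sign ranged from -0.0983 to 0.0522 for AURKA, from -0.0307 to 0.11 for ANLN, from -0.00357 to 0.279 for CCNA2, from -0.0171 to 0.32 for PTTG1, from -0.0114 to 0.0743 for CDCA8, from -0.0624 to 0.107 for MAD2L1, from -0.0837 to 0.052 for BIRC5, from -0.034 to 0.0472 for ROCK1, from -0.152 to 0.0139 for ESPL1, from -0.196 to 0.108 for AURKB, from -0.0671 to 0.0551 for CIT, from -0.391 to 0.0532 for TOP2A, from -0.198 to 0.103 for MKI67, from -0.24 to 0.0446 for CENPF, from -0.293 to 0.0103 for INCENP, and from -0.00772 to 0.218 for LIN52. Medians of the 55 genes in the pairs moved by less than 0.14, the standard deviation of the 3 pair medians, in every alternative run. That bound is larger in size than the medians of pairs 2 and 3. The pair medians cannot change without the block or the trend, with other filters, or with a replicate number left out. With ComBat they were 0.12, 0.04 and -0.08 in pairs 1, 2 and 3, and with a pseudocount of 0.1 they were 0.17, 0.05 and -0.12. FPKM alone give no read numbers, so the counting error behind each value is not known.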
